A study of Mus musculus with 4 samples.

Results

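The immediate early genes are a set of 10 protein-coding genes chosen by name: Fos, Fosb, Jun, Junb, Jund, Egr1, Egr2, Egr3, Ier2 and Ier3. All 10 were found among the 21631 protein-coding genes of the autosomes and the X chromosome in RefSeq (GRCm38.p6, the assembly that mm10 names). The data are peak lists from ChIP-exo, in which an exonuclease trims immunoprecipitated chromatin, of a mouse embryonic stem cell line, Bruce-4, which is of C57BL/6J origin and was cultured in serum/2i/LIF medium. The 4 libraries, each from 10000000 cells fixed with 1% formaldehyde for 10 min, were made with antibodies against H3K4me3 (1 library, a histone mark of active and poised promoters), CTCF (2 libraries, a zinc finger protein that halts cohesin) and RAD21 (1 library, a cohesin subunit). The CTCF libraries are represented by a single union list, so no peak list had a replicate, and all comparisons below are descriptions without a test between samples. Lists gave positions only: depth and peak height were unknown, and a missing peak shows only that none was called.

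Immediate early genes are transcribed within minutes of a stimulus without prior protein synthesis. Growth factor signalling through ERK phosphorylates ELK factors, which sit with serum response factor on CArG boxes in many of these promoters. The products are mostly transcription factors: FOS and JUN proteins dimerise as AP-1, and the EGR proteins are zinc finger factors that bind GC-rich sites. The 2i supplement holds a MEK inhibitor, which acts upstream of ERK.

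As a check of the labelled cell type, H3K4me3 lay in the gene or within 1 kb of it at 8 of 8 embryonic stem cell markers, with a median domain of 1666.5 bp. It did so at 2 of 8 fibroblast markers (Thy1 and Col1a1), and at 5 of 5 markers of trophoblast or primitive endoderm. The share over all protein-coding genes was 64.9%. With every marker of both lists marked, these counts do not separate stem cells from trophoblast or primitive endoderm. On these chromosomes there were 21600 peaks of H3K4me3, 51737 of CTCF and 75897 of RAD21, with median lengths of 682, 104 and 140 bp.

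Promoter stretches on which the results turn are shown first, read 5′ to 3′ in the direction of the gene from RefSeq (GRCm38.p6). The stretch of Fos, chr12:85473640-85473889 on the plus strand, ends at the base before the annotated start. It is shown because the shortest kind of RAD21 call, 71 bp, lies inside it (capitals).
Fos: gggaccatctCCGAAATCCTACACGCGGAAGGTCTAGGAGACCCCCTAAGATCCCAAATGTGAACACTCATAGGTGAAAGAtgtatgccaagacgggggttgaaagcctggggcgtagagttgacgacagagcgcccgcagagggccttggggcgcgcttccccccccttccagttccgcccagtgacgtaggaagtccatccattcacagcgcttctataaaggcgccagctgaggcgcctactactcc
The stretch of Jun, chr4:95052223-95052472 on the minus strand, is shown because no peak of any list reached it although H3K4me3 peaks lay on both sides (no capitals).
Jun: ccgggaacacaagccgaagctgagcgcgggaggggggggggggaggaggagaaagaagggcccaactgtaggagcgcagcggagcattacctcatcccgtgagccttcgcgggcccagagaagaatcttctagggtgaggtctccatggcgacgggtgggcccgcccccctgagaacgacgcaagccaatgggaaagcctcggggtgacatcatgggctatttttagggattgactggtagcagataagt
The stretch of Ier3, chr17:35821463-35821712 on the plus strand, is shown because the H3K4me3 domain begins just before the start (capitals, 33 bases).
Ier3: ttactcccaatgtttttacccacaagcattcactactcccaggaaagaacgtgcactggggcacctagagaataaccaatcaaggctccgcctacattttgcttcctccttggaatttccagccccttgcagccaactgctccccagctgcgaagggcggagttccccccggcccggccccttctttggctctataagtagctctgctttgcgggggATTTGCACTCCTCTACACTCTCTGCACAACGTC

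At Fos and Ier3 the mark thus covered the annotated start, and at Jun it left the start bare. Promoter windows of 250 bases before to 50 after a start were given for 7 of the 10 genes, and 7 motifs were searched in them on both strands. A CArG box was found at Egr2 alone among the 7 genes, against 1.82% of 26794 genes with a window. It occurred at distinct places, chr10:67537484-67537513 and chr10:67537787-67537816, shown here with the box in capitals.
Egr2, the first: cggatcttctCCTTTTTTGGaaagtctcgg
Egr2, the second: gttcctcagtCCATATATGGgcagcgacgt
The first of these stretches lay in the H3K4me3 domain of Egr2 and the second lay outside it. The EGR site GCGGGGGCG was found at Fosb alone, against 3.34% of genes, at chr7:19310076-19310105 on the minus strand (capitals), inside the H3K4me3 domain.
Fosb: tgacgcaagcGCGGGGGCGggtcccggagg
TATAAA was found at Fos and Junb, against 15.7% of genes. At Fos it lay 33 to 28 bases before the start, and at Junb it began at the annotated start itself. The motifs TGACGTCA, TGACTCA, GCGTGGGCG and CCGGAAGT were in none of the 7 genes' windows, against 2.05%, 5.98%, 0.713% and 4.34% of genes. No match in a member's window overlapped a match to another motif. These matches describe letters in a window and not bound sites. A motif farther from the start would be missed, and Egr1, Egr3 and Ier2 had no window to search.

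H3K4me3 marked 9 of the 10 genes, where the domain of a gene is the widest H3K4me3 peak that overlaps the gene body or 1 kb either side. Of all protein-coding genes 64.9% had such a domain, and of the 7741 under 10 kb long, as all 10 members are, 44.1% did. Domains ran from 435 bp at Fosb to 1576 bp at Jund, with a median of 983 bp, against 917 bp over the 14031 marked protein-coding genes (quartiles 681 and 1202.5 bp). Jund and Ier2 were the widest, and Fosb and Junb (520 bp) the narrowest. Only 7.7% of marked genes had a domain narrower than that of Fosb. More than 1 H3K4me3 peak in the body or 1 kb either side was found at 5 of the 9 (Fosb, Jun, Jund, Egr1 and Ier3), against 31.7% of marked genes and 20.6% of those under 10 kb. Egr3 had no H3K4me3 peak within 1 kb, and for it the nearest peak, 1779 bp away, stands in the distances below.

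At most of these genes the nearest RAD21 and CTCF peaks lay outside the domain. RAD21 overlapped the domain of 1 of 9 marked genes, Fos, against 36.2% of all marked protein-coding genes and 34.4% of those under 10 kb. CTCF overlapped 0 of 9 domains, against 19.5% and 20.3%. Of the 9 domains 8 held neither protein, against 58.8% of all marked genes, and Fos had RAD21 only, against 21.7%. Domains with CTCF only (4.97% of marked genes) or with both (14.5%) did not occur among the 9. The exact (Clopper-Pearson) 95% intervals of these shares, 0.281 to 48.2% and 0 to 33.6%, include the shares over all marked genes. Of the 9, 7 had RAD21 and 7 had CTCF at most 2 kb from the domain (exact 95% interval 40 to 97.2% for each), against 58.9% and 41% of all marked genes and 57.9% and 44.5% of those under 10 kb. Peaks outside the domain yet at most 2 kb from it were thus nearest at 6 genes for RAD21 and 7 for CTCF, against 22.6% and 21.5% of all marked genes and 23.6% and 24.2% of those under 10 kb. The distance of 2 kb was chosen after the values were seen. These intervals cover counting error only. They take the members as random draws, whereas the genes were chosen by name, and they are no test of the set. Overlaps at the domain changed when H3K4me3 peaks up to 1 kb apart were joined, to 3 of 9 genes for RAD21 (Fos, Jun and Egr1), against 39.6% of marked genes, and to 1 for CTCF (Egr1), against 22.1%. The overlap at Fos rests on a call of the shortest length, and without such calls 0 of 9 domains held RAD21, against 31.9% of marked genes.

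**Figure D1:**
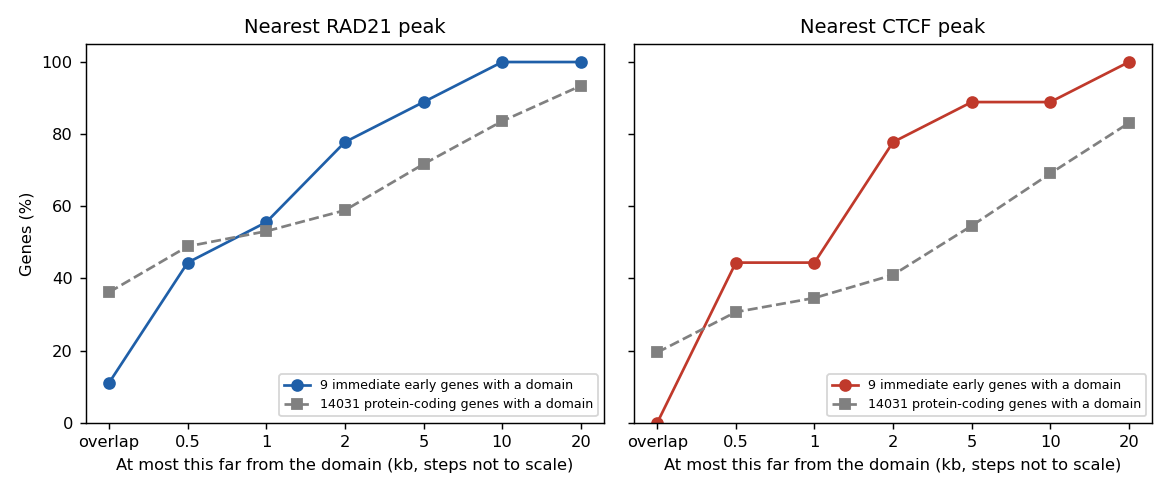
Share of genes (%, vertical axis) whose nearest RAD21 peak (left) or CTCF peak (right) overlaps the H3K4me3 domain or lies at most the given distance in kb from it (horizontal axis, steps not to scale), for the 9 immediate early genes with a domain (solid lines) and the 14031 protein-coding genes with one (dashed lines). The solid lines start lower at overlap, at 11.1% for RAD21 and 0% for CTCF, and are above the dashed lines from 1 kb for RAD21 and from 0.5 kb for CTCF.

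The distance from the domain to the nearest RAD21 peak, edge to edge, was 0 bp at Fos, 80 bp at Jund, 350 bp at Egr1, 369 bp at Egr2, 967 bp at Jun, 1835 bp at Ier3, 1942 bp at Junb, 2214 bp at Ier2 and 5954 bp at Fosb. The median of these 9 was 967 bp, against 617 bp over all marked genes (quartiles 0 and 6042.5 bp) and 805.5 bp over marked genes under 10 kb. The members' median was the lower one when H3K4me3 peaks up to 1 kb apart were joined (369 bp, against 485 bp) and with only peaks above the median length of their list (1098 bp, against 6412 bp). The distance to the nearest CTCF peak was 56 bp at Fosb, 121 bp at Jund, 422 bp at Egr2, 429 bp at Egr1, 1032 bp at Jun, 1813 bp at Ier3, 1890 bp at Junb, 2220 bp at Ier2 and 13346 bp at Fos. The median was 1032 bp, against 3824 bp over all marked genes (quartiles 128 and 13107 bp) and 2751.5 bp over marked genes under 10 kb. Fos thus had the nearest RAD21 and the farthest CTCF, and Fosb had the nearest CTCF and the farthest RAD21. Without the shortest calls both RAD21 ranks changed: Jund, at 80 bp, was nearest, Fos was at 3404 bp, and Ier2, at 6627 bp, was farther than Fosb. The short distances of Jund are from its widest H3K4me3 peak, at the 3′ end of the gene. From its peak nearest to the start they were 1901 bp to RAD21 and 1942 bp to CTCF. For Egr3, measured from its nearest H3K4me3 peak, the distances were 250 bp to RAD21 and 496 bp to CTCF. The nearest CTCF peak was shared with RAD21 at 8 of the 9 marked members, Fosb being the exception, against 77.7% of all marked genes. The nearest CTCF and the nearest RAD21 peak overlapped each other at 7 of the 9, against 46.9%.

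**Figure D2:**
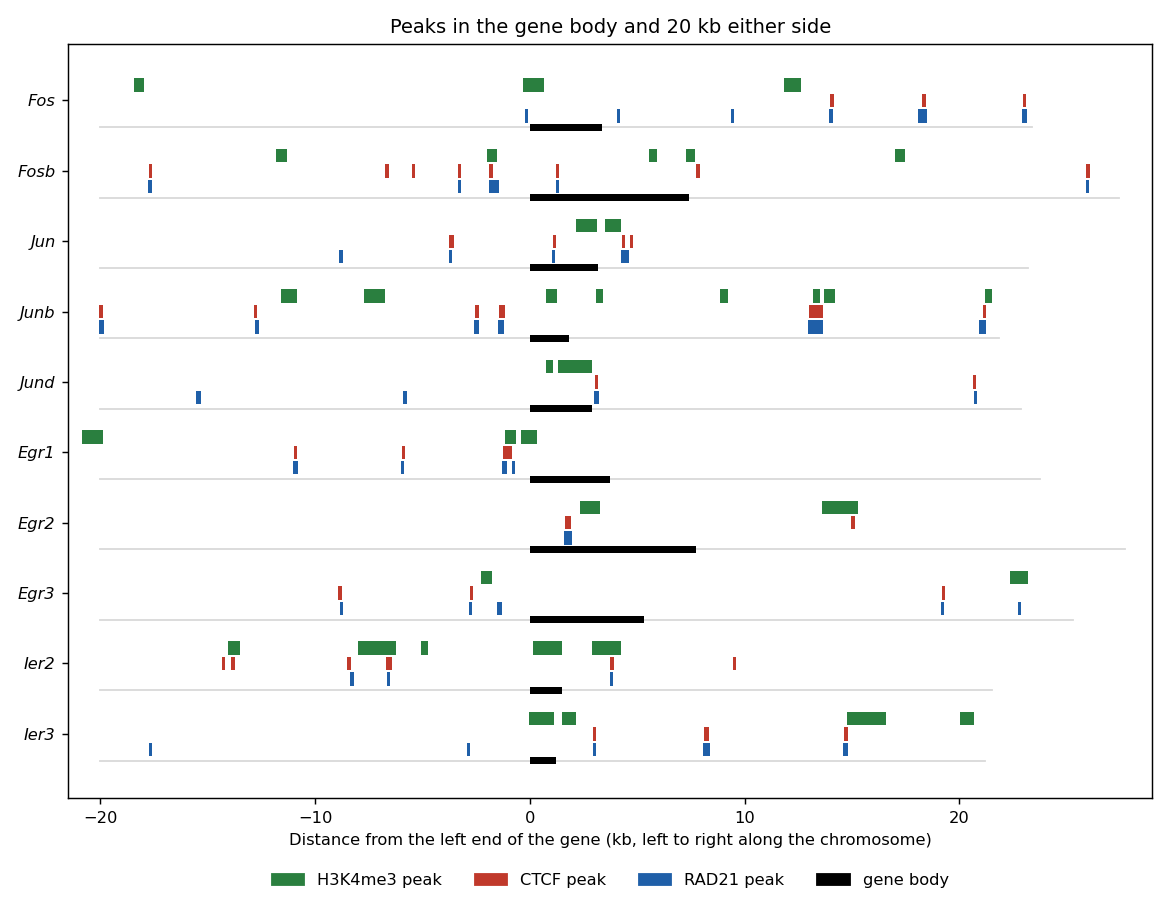
Peaks of the 3 lists in the body of each immediate early gene and 20 kb either side, with the distance from the left gene end in kb along the chromosome (horizontal axis) and a row for each gene (black bar, gene body). Peaks under 150 bp are drawn 150 bp wide. All 10 windows hold peaks of every list, and most CTCF peaks (32 of 40) stand above a RAD21 peak.

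Within the gene body and 20 kb either side, all 10 genes had RAD21 and all 10 had CTCF, against 86.9% and 79.7% of all protein-coding genes, 74.7% and 65.3% of those under 10 kb and 98.4% and 93.8% of marked ones. The windows, none of which overlapped another, held 36 H3K4me3, 40 CTCF and 43 RAD21 peaks. H3K4me3 peaks numbered 2 to 8 a gene with a median of 3, against 1 over all protein-coding genes and 2 over marked ones. CTCF peaks numbered 2 to 8 (median 3, against 3 over all genes), and RAD21 peaks 1 to 6 (median 4.5, against 3 over all genes and 4 over marked ones). CTCF overlapped RAD21 at 32 of 40 peaks (80%, against 81.9% of all CTCF peaks), and RAD21 overlapped CTCF at 33 of 43 (76.7%, against 55.9% of all RAD21 peaks). Only 3 CTCF and 3 RAD21 peaks lay in a member's own body. The other 27 H3K4me3 peaks of the windows, which are not the members' domains, overlapped CTCF at 10 (37%, against 17.1% of all H3K4me3 peaks) and RAD21 at 9 (33.3%, against 31.5%).

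**Figure D3:**
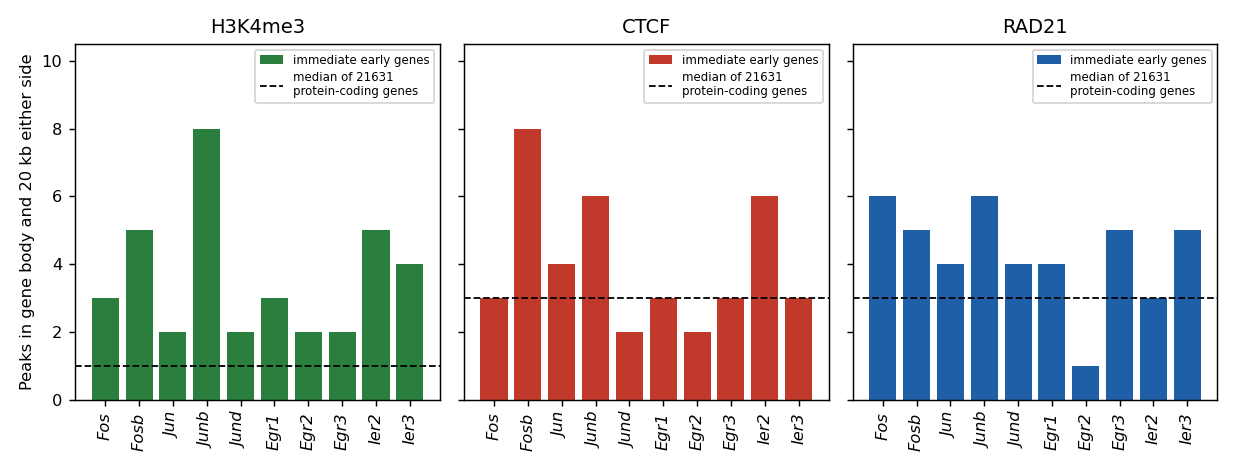
Number of H3K4me3, CTCF and RAD21 peaks (vertical axis) in the body and 20 kb either side of each immediate early gene (bars), with the median over 21631 protein-coding genes (dashed line). Junb has the most H3K4me3 peaks (8), Fosb the most CTCF peaks (8), and Egr2 the fewest RAD21 peaks (1).

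Fos encodes the founding member of the FOS family. At Fos (chr12:85473890-85477274), the 983 bp domain reached from 332 bp before to 650 bp after the annotated start. The 71 bp RAD21 peak at chr12:85473650-85473720, printed above, had no CTCF. Further RAD21 peaks without CTCF, of 116 and 99 bp, lay 3404 and 8719 bp downstream of the domain. CTCF began only at 13346 bp, where a 98 bp peak lay with a 141 bp RAD21 peak, and a 214 bp CTCF peak within a 415 bp RAD21 peak followed at 17611 bp. An 800 bp H3K4me3 peak between genes lay 11194 bp downstream of the domain, ahead of these sites. No protein-coding gene was within 20 kb of Fos, the nearest being Tmed10 at 99172 bp.

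Fosb encodes a second FOS protein, which like FOS pairs with JUN proteins. At Fosb (chr7:19302696-19310118, minus strand), the 435 bp domain reached from 353 bp before to 81 bp after the annotated start. A 181 bp CTCF peak at chr7:19310455-19310635 lay 56 bp upstream of the domain without RAD21. The nearest RAD21 peak, 92 bp, lay inside the gene with a 109 bp CTCF peak, 5954 bp from the domain. Of the 8 CTCF peaks in the window 5 had RAD21, and all 5 RAD21 peaks had CTCF. Past the 3′ end, at the lncRNA gene Gm26802, a 470 bp H3K4me3 peak held CTCF (201 bp) and RAD21 (463 bp) peaks together.

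Jun encodes the main AP-1 partner of FOS. At Jun (chr4:95049036-95052222, minus strand) a pair of H3K4me3 peaks, the 1009 bp domain and a 761 bp peak, flanked the annotated start. The start lay 47 bp upstream of the domain and 311 bp downstream of the 761 bp peak, in a gap of 359 bp. Inside the gene a 134 bp RAD21 peak with a 40 bp CTCF peak lay 967 bp from the domain. On the upstream side a 395 bp RAD21 peak overlapped the 761 bp H3K4me3 peak and an 85 bp CTCF peak. The shared CTCF and RAD21 sites on either side of the domain were 3203 bp apart, and 0.678% of marked genes had a shorter span. This span bounds the domain and not the whole gene, since the 40 bp CTCF peak lies inside Jun. With only peaks above the median length of their list, the nearest CTCF peak of Jun was at 5649 bp. The H3K4me3 peak and sites upstream of the start lay at the lncRNA gene Junos.

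Junb encodes a JUN protein with weaker AP-1 activity than JUN. At Junb (chr8:84976909-84978748, minus strand) the start was likewise bare, between the 520 bp domain 571 bp downstream and a 318 bp H3K4me3 peak 1230 bp upstream. The nearest CTCF and RAD21 peaks, 277 and 303 bp long, overlapped each other past the 3′ end of Junb, 1890 and 1942 bp from the domain. They lay within 1 kb of an end of Prdx2, which encodes a peroxiredoxin and is the nearest coding neighbour at 2097 bp. The window held the most H3K4me3 peaks, 8, and 6 CTCF and 6 RAD21 peaks, all of which had the other protein. The longest CTCF and RAD21 peaks of all windows, 665 and 689 bp, lay together inside Hook2 on the upstream side, 11718 and 11703 bp from the domain.

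Jund encodes the JUN protein that is expressed most steadily across tissues. At Jund (chr8:70697739-70700616, plus strand), H3K4me3 lay over the body, as a 335 bp peak and the 1576 bp domain, and ended just past the 3′ end. The annotated start was bare and 735 bp upstream of the first of these peaks. A 185 bp CTCF peak inside a 273 bp RAD21 peak lay 121 bp beyond the domain, between Jund and its neighbour Iqcn, 704 bp away. From the 335 bp peak, the nearer to the start, the distances were 1901 bp to RAD21 and 1942 bp to CTCF. Both RAD21 peaks on the other side of the domain, 251 and 88 bp long, lacked CTCF and lay within 1 kb of an end of the lncRNA gene Gm39191.

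**Figure D4:**
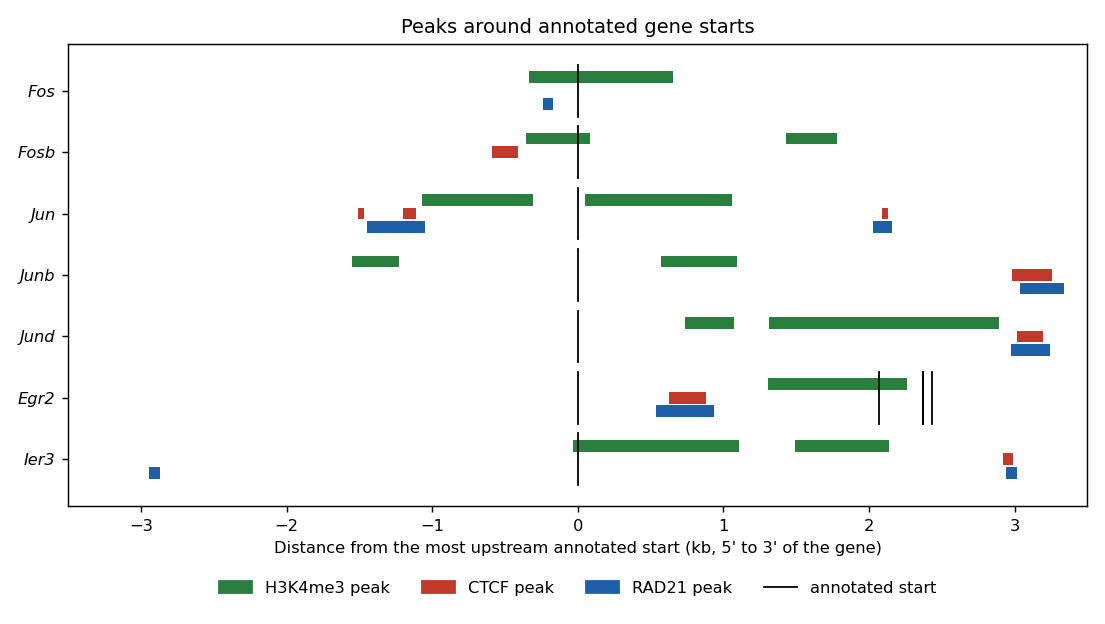
Peaks around the most upstream annotated start (0 on the horizontal axis, distance in kb, 5′ to 3′ of each gene) of the 7 immediate early genes with a start in the promoter table; black lines mark annotated starts. H3K4me3 covers a start at Fos, Fosb, Egr2 and Ier3, flanks a bare start at Jun and Junb, and lies only downstream of it at Jund.

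An annotated start lay inside an H3K4me3 peak at 4 of these 7 genes, against 62.9% of 11210 marked genes with a start in the table. A bare start with H3K4me3 at most 2 kb away on both sides was found at 2 of the 7, Jun and Junb, against 8.88%. This class was defined after the values were seen.

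Egr1 encodes the most studied EGR factor. At Egr1 (chr18:34861207-34864956), the 721 bp domain covered the gene end at the lower coordinate. A 526 bp H3K4me3 peak followed 232 bp farther out and overlapped a 422 bp CTCF peak and RAD21 peaks of 201 and 92 bp. CTCF and RAD21 were therefore 429 and 350 bp from the domain itself. All 3 CTCF and 4 RAD21 peaks of the window lay on this side, each with the other protein. On the other side the first shared site was 27475 bp away.

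Egr2 encodes the EGR factor known for hindbrain segmentation and for myelination by Schwann cells. At Egr2 (chr10:67534469-67542188, plus strand, 5 annotated starts), the 955 bp domain covered the start at 67537566, from 762 bp before to 192 bp after it. The start at 67535499 lay bare, 1304 bp upstream of the domain, and the others lay bare 110 to 171 bp past it. A 259 bp CTCF peak inside a 397 bp RAD21 peak lay 422 bp upstream of the domain, at an end of the lncRNA gene Gm32255. Both peaks lay inside the Egr2 body, the CTCF peak 624 to 882 bp after the most upstream annotated start. That RAD21 peak was the only one in the window. On the downstream side a 192 bp CTCF peak without RAD21 lay in the 1670 bp H3K4me3 domain of Ado, and the first shared site was 176601 bp away.

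Egr3 encodes an EGR factor of neurons and lymphocytes and was the member without a domain (chr14:70077317-70082613). Its nearest H3K4me3 peak was 486 bp long, at chr14:70075052-70075537. A 241 bp RAD21 peak without CTCF lay between this peak and the gene, 250 bp from the peak and 1288 bp from the gene. On the far side of the H3K4me3 peak, at 496 bp, came a CTCF peak of 37 bp, the shortest length in the list, inside a 110 bp RAD21 peak. Without the shortest calls the nearest CTCF peak was at 6489 bp.

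Ier2 encodes a small nuclear protein. At Ier2 (chr8:84661331-84662852), the 1373 bp domain lay inside the gene, and a 1355 bp H3K4me3 peak followed 1392 bp farther on. That second peak, which lay at no gene of the annotation used here, held the nearest CTCF peak (198 bp, at 2220 bp) and RAD21 peak (71 bp, at 2214 bp). On the other side a 1757 bp H3K4me3 peak held a 262 bp CTCF peak with a 152 bp RAD21 peak, 6552 bp from the domain. Without the shortest calls the nearest RAD21 peak of Ier2 was at 6627 bp.

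Ier3 encodes a small protein of the stress response. At Ier3 (chr17:35821713-35822911, plus strand), the 1141 bp domain covered nearly the whole gene. A 644 bp H3K4me3 peak lay 383 bp downstream, at the side of Flot1 that faces Ier3. Flot1, a gene for a membrane scaffold protein, lay 408 bp from Ier3. The nearest CTCF and RAD21 peaks, 65 and 71 bp long, overlapped inside Flot1, 1813 and 1835 bp from the domain. Without the shortest calls the nearest RAD21 peak of Ier3 was on the other side, at 2834 bp. A longer pair of 234 and 325 bp lay farther inside Flot1, and another, 189 and 212 bp, at the 1817 bp H3K4me3 domain of Tubb5. Upstream, 2 RAD21 peaks of 81 and 157 bp lacked CTCF, and no CTCF peak was called within 20 kb.

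**Figure D5:**
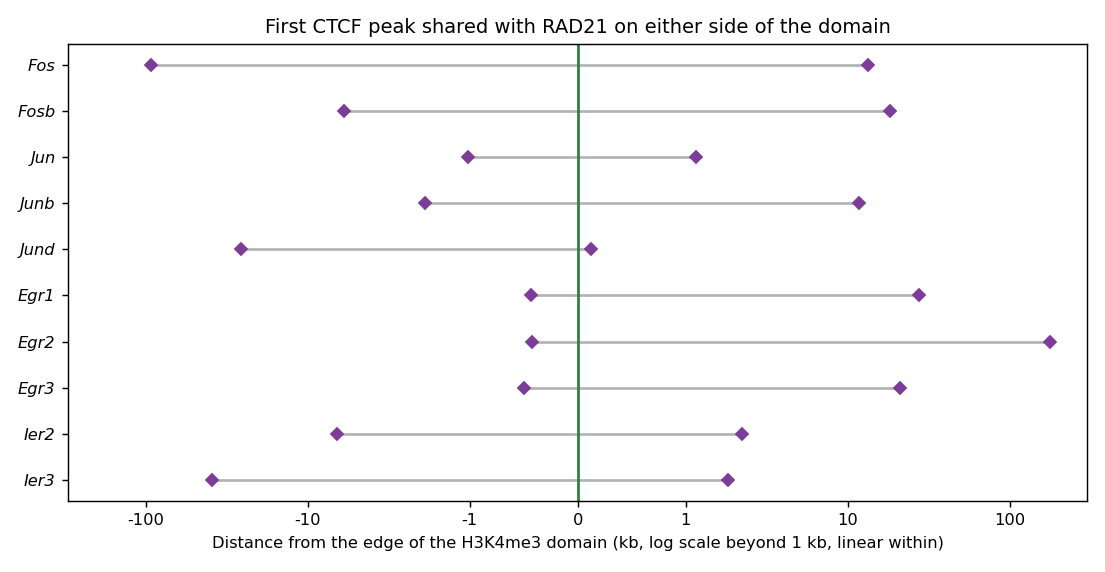
Distance (kb, horizontal axis, log scale beyond 1 kb and linear within) from the H3K4me3 domain of each immediate early gene (green line; for Egr3 its nearest H3K4me3 peak) to the first CTCF peak shared with RAD21 on either side along the chromosome (diamonds). The domain of Jun is enclosed most closely, with a span of 3203 bp that does not hold the whole gene. The domain of Egr2 has the widest span, 177978 bp. The spans of Fosb and Egr2 do not hold the whole gene either.

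The first CTCF peaks shared with RAD21 on either side of a domain bounded spans from 3203 bp at Jun to 177978 bp at Egr2. In between came Ier2 (10145 bp), Junb (14128 bp), Egr3 (21950 bp), Fosb (24596 bp), Jund (27588 bp), Egr1 (28625 bp), Ier3 (41953 bp) and Fos (106614 bp). The median of the 9 marked genes was 27588 bp, against 49761 bp over all marked genes (quartiles 25876 and 92577.5 bp) and 34209 bp over marked genes under 10 kb. Spans under 20 kb were found at 3 of the 9 marked members, against 17.8% of marked genes. At Fos, Fosb, Jun, Egr1, Egr3 and Ier2 the member was the only protein-coding gene that overlapped its span. At Fosb, Jun and Egr2 the shared site at the lower coordinate lay inside the gene, so the span did not hold all of it. The other spans also reached Hook2 (Junb), Lsm4 (Jund), Ado (Egr2) and Flot1 (Ier3).

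Of the 10 RAD21 peaks without CTCF in the windows, 3 were at Fos, 2 each at Jund, Egr3 and Ier3, and 1 at Jun. They were 71 to 251 bp long with a median of 125.5 bp, against 152 bp for the 33 with CTCF. The 8 CTCF peaks without RAD21 were at Fosb (3), Ier2 (3), Jun (1) and Egr2 (1), with a median of 81 bp, against 153.5 bp for the 32 with RAD21. Of the windows' peaks 4 CTCF peaks were 39 bp or shorter and 4 RAD21 peaks were 71 bp long, 10% and 9.3% of them, against 15.1% and 16.1% over the lists.

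Other genes of the response were set beside the members. Of 26 other early response genes 24 had a domain, against 64.9% of all protein-coding genes, with a median of 1189 bp. Mcl1, a survival factor of the BCL2 family, had 2191 bp and Dusp4, a phosphatase that acts on ERK, had 1844 bp. Egr4 and Npas4, which encode activity-dependent transcription factors, had none. RAD21 overlapped 5 and CTCF 1 of the 24 domains, against 36.2% and 19.5% of all marked genes. The median distances were 1533 bp to RAD21 and 2566.5 bp to CTCF, against 617 and 3824 bp over all marked genes. RAD21 was at most 2 kb away at 14 and CTCF at 10 of the 24 (58.3% and 41.7%). These shares are close to those over all marked genes, 58.9% and 41%.

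Another list held 9 genes, for serum response factor, ELK factors, their co-activators, EGR co-regulators and CREB1. All 9 had a domain, the widest being Elk4 (1457 bp) and Srf (1317 bp). RAD21 overlapped 0 and CTCF 1 of these domains, with median distances of 7803 bp to RAD21 and 8819 bp to CTCF. Of the 15 ERK pathway genes all 15 had a domain, among them Hras (1762 bp) and Sos1 (1523 bp), which encode a RAS protein and its exchange factor. RAD21 overlapped 5 and CTCF 3 of these, with median distances of 215 and 2338 bp. Of all protein-coding genes 64.9% had a domain, and of marked genes 36.2% had RAD21 and 19.5% had CTCF in it. The lists differ in gene length, and no difference between them was tested.

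Among genes outside all lists, the 5 whose domain length, RAD21 distance and CTCF distance on a log10 scale were nearest to the members' medians (969, 668 and 764 bp, Egr3 included) were D930020B18Rik, Kcnd2, St6galnac6, Kmt2b and Adamts5. D930020B18Rik, the nearest, had a 937 bp domain with RAD21 at 606 bp and CTCF at 753 bp.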

How the data were processed

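Peak lists for H3K4me3, CTCF and RAD21 were deposited by the authors as chromosome, start and end, with no score or count, so the only other quantity is length. Per the submitters' processing notes, the build was mm10 and MACS2, bedtools 2.30.0, Bowtie2 2.4.5 and Picard 2.27.4 are named without their roles. For thresholds and controls, nothing is stated in the sources used here. The CTCF list is a union recorded under the second CTCF library, and a list of the first was not analysed here.

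Distances and overlaps were computed with pandas 2.3.3 and numpy 2.4.6 under Python 3.11.15, on the 19 autosomes and X, with an overlap of at least 1 bp and 1-based coordinates. Distances at all 21631 genes equalled those of bedtools 2.31.1. Exact intervals came from scipy 1.17.1. RefSeq (GRCm38.p6) gave genes and, for 7 of the 10 members, starts and promoter letters. The members and lists were chosen with earlier results of these data known. Text names all members, the genes at their nearest peaks, their nearest coding neighbours, the 2 widest and the unmarked genes of the 3 lists of response, co-regulator and ERK pathway genes, and the 5 genes most alike. Other neighbours were named after their values were seen. Sequence of CTCF peaks was not analysed here. Alternatives varied the peaks kept, window, domain, distance, width and comparison genes.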

Additional observations from a re-analysis of the deposited data

How the results depend on the processing

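Of 60 values listed under other settings, 43 stayed within 1.5 times the reported one and 17 moved further. The 43 include the rows that only changed the comparison genes. There the members' values were not recomputed and could not move. The counts of genes with a domain (9 of 10, and 7 with only peaks above the median length) and of genes with RAD21 or CTCF within 20 kb (9 to 10) stayed within that range in every setting run. Only the setting with longer peaks could lower the count of genes with a domain, since the others removed no H3K4me3 peak. A window of 50 kb either side could not lower the counts of genes with RAD21 or CTCF. Medians above 500 bp could not move when 500 bp was allowed. RAD21 overlapped the domain at 0 genes without the shortest calls and at 0 with the longer peaks, at 3 with H3K4me3 peaks merged, and at 4 with 500 bp allowed (31.9%, 23.3%, 39.6% and 48.9% of all marked genes in these settings). CTCF overlapped it at 1 gene with merging, at 1 by midpoints within 500 bp, and at 4 with 500 bp allowed (22.1%, 18.4% and 30.7% of all marked genes). The median RAD21 distance was 1942 bp without the shortest calls, 1835 bp from the H3K4me3 peak nearest to the start, 369 bp after merging and 1539 bp between midpoints. The median CTCF distance was 2220 bp with the longer peaks, 1813 bp from the peak nearest to the start, 422 bp after merging and 1557 bp between midpoints. It was below that of all marked genes in each of these, whereas the RAD21 median was above it except after merging and with the longer peaks. With the longer peaks RAD21 was at most 2 kb away at 4 and CTCF at 3 of the 7 genes with a domain, against 36.2% and 25.5% of all marked genes. Among the members, only the distances of Jund differed when taken from the peak nearest to the start. After merging, the distances of Jun, Egr1 and Ier3 differed. Any further cause of the shifts was not tested. No paired analysis was possible because the antibodies share only 1 replicate number and no result comes from a test; leaving out a CTCF library was not run, since only the union list was used. Depth was unknown.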

Other observations

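RAD21 without CTCF in an H3K4me3 domain, the state of Fos, was also found at 4 of the 24 marked genes among the other early response genes, against 21.7% of all marked genes. These were Ier5, Ccn2, Arc and Dusp1, named after their values were seen. Ier5 had a 1553 bp domain with CTCF 25129 bp away. Ccn2, which encodes a matricellular protein, had 1214 bp with CTCF at 3960 bp. Arc, an activity-regulated gene of neurons, had 1109 bp with CTCF at 12015 bp. Dusp1, which encodes a phosphatase of MAP kinases, had 929 bp with CTCF at 577 bp. Fosl1, a FOS family gene, was the only gene of that list with RAD21 and CTCF both in its 990 bp domain. This domain did not overlap the body of Fosl1 and lay 613 bp outside it. Dusp6, another ERK phosphatase gene, had the narrowest domain of the list, 325 bp, with no CTCF or RAD21 peak within 20 kb of the gene. The nearest lay 72488 and 34279 bp from its domain.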
